A study of Mus musculus with 21 samples.

Results

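The KCNQ and ether-a-go-go potassium channels are 2 families of voltage-gated channels, and 8 of their genes were read out here: Kcnq3, Kcnq5, Kcnh1, Kcnh2, Kcnh3, Kcnh4, Kcnh5 and Kcnh7. They were chosen by name, with earlier results of these data known, and all 8 were among the 16318 genes of the deposited table. RNA had been taken from the brains of 21 mice of the senescence-accelerated strain SAMP8, 1 library per mouse, and no library of another strain was used. HsTX1[R14A], an analogue of a scorpion toxin that blocks the potassium channel Kv1.3, was given under the skin at 1 mg/kg on alternate days for 8 weeks, from 4 to 6 months of age, to 3 female and 6 male mice, while 6 females and 6 males of the same strain and age received phosphate-buffered saline (PBS). The question asked of each channel gene was whether its transcript level differed between HsTX1[R14A]-treated and PBS-treated SAMP8 brains, and whether the 8 genes did so together.

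Both families let potassium leave a depolarised neuron and so hold back firing. KCNQ subunits form the M-current, a slow current that opens near the resting potential and is closed when muscarinic and other Gq-coupled receptors use up the membrane lipid PIP2 that the channel needs. The ether-a-go-go family, encoded by the Kcnh genes, has 3 branches, EAG, ERG and ELK. Of the genes read out here, Kcnh1 and Kcnh5 belong to EAG, Kcnh2 and Kcnh7 to ERG, and Kcnh3 and Kcnh4 to ELK. In brain these channels are known mainly from neurons, and Kcnh2 is also known for its part in repolarising the heart.

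The feature that ties the 2 families together is the selectivity filter, the narrowest stretch of the pore, and its coding sequence also tells them apart. The 27 bases of the reference around it are shown for Kcnq3 and the 6 Kcnh genes, 5′ to 3′ on the coding strand, with the 3 filter codons in capitals. They were read from the GENCODE transcripts of GRCm38, at coding exons of chr15:66023722-66023748 (Kcnq3, minus strand), chr1:192337751-192337777 (Kcnh1, plus), chr12:75087457-75087483 (Kcnh5, minus), chr5:24325546-24325572 (Kcnh2, minus), chr2:62777334-62777360 (Kcnh7, minus), chr15:99232926-99232952 (Kcnh3, plus) and chr11:100750284-100750310 (Kcnh4, minus).
Kcnq3: gccaccattGGTTATGGAgacaagaca
Kcnh1: accagtgtgGGCTTTGGTaacattgcc
Kcnh5: acaaccataGGATTTGGAaacatagct
Kcnh2: accagcgtgGGCTTTGGCaatgtctct
Kcnh7: accagtgtaGGATTTGGAaatgtgtct
Kcnh3: accagtgtgGGCTTCGGCaacgtgtcc
Kcnh4: accagtgtaGGCTTCGGCaacgtgtgt
In the capitals, the middle codon is a tyrosine codon in Kcnq3 and a phenylalanine codon in the 6 Kcnh genes, between glycine codons in each.

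All 8 have a longest annotated transcript above the median of all genes, and their spans in the genome differ widely. Their longest annotated transcripts ran from 3698 bases (Kcnh3) to 13321 bases (Kcnh7), with a median of 5598 bases against 3282 bases over the 16239 genes with an annotated length. Kcnh3, Kcnh4, Kcnh5 and Kcnh2 were longer than 58.2, 62.5, 64.5 and 67.3% of genes. Kcnq5, Kcnh1, Kcnq3 and Kcnh7 were longer than 91.2 to 99.3%. Kcnq5 spans 563.5 kb of chromosome 1, Kcnh7 490.9 kb of chromosome 2, Kcnh1 319.4 kb of chromosome 1, Kcnq3 300.3 kb of chromosome 15 and Kcnh5 280.1 kb of chromosome 12, whereas Kcnh2 (32.0 kb, chromosome 5), Kcnh4 (19.6 kb, chromosome 11) and Kcnh3 (18 kb, chromosome 15) are compact and have the highest GC content, from 60.0 to 61.3% of the longest transcript. Kcnh1 and Kcnh7 overlap the genes Hhat and Gca on the opposite strand, and Kcnq5 holds the processed pseudogene Gm7658 on its own strand. Kcnh3 and Mcrs1, on opposite strands, share only the base at chr15:99242817. Whether the counting used strand is not given in the sources used here. Reads in the overlaps with Hhat and Gca could therefore have been counted for either gene. Strand would not separate reads of Kcnq5 from those of Gm7658.

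Libraries held 14917174 to 47613792 counts, and the lowest count of any of the 8 genes in any mouse was 37 (Kcnh4 in PBS mouse 103), so that the spread between mice rather than the sampling of reads set the precision. The labelled tissue is brain and the study's methods speak of whole brain, and markers of neurons were high in every library. The cerebellar granule cell genes Gabra6 and Cbln3 had medians of 0.228 and 0.357 CPM (counts divided by scaled library size), under 1 CPM in 16 and 12 of the 21 mice, and reached 90.1 and 127.9 CPM in HsTX1[R14A] mouse 74, so that granule cell transcripts were close to absent from most libraries. HsTX1[R14A] mouse 71 had the lowest summed level of 6 striatal markers, 315.8 CPM against 673 to 1394 CPM in the other mice. The libraries also differed in length slope, the regression of each gene's log2 CPM (centred on its mean over the mice) on the log2 length of its longest transcript. The slope was -0.076 ± 0.161 (SD, n = 12) in PBS and 0.102 ± 0.119 (SD, n = 9) in HsTX1[R14A] mice, lowest in PBS mice 103 (-0.384) and 90 (-0.338) and highest in HsTX1[R14A] mice 98 (0.234) and 81 (0.201). Library names in the deposited headers take 2 forms, "SAMP8" for 10 PBS and 5 HsTX1[R14A] mice and "SAMP" for 2 PBS and 4 HsTX1[R14A] mice, and what the forms stand for is not stated.

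In PBS-treated brains the 8 genes fell into an upper group of 6 and a lower pair. Levels between genes were compared as CPM per kilobase of the longest transcript, with CPM scaled by TMM (trimmed mean of M values). Kcnh3, a forebrain ELK channel, had the highest level at 18 ± 6.63 CPM per kilobase (SD, n = 12). Kcnq5 (11.5 ± 2.01) and Kcnq3 (9.85 ± 3.63), both M-current subunits, came next. Kcnh7, Kcnh1 and Kcnh2 followed at 6.87 ± 2.06, 6.57 ± 2.21 and 4.93 ± 2.05 CPM per kilobase. Kcnh4 and Kcnh5 were lowest at 1.81 ± 0.539 and 1.71 ± 0.495 CPM per kilobase.
Neighbours in this order were apart to different degrees, which were not tested. Kcnh2 exceeded Kcnh4 in 12 of 12 PBS mice, and the mean log2 ratio of 1.41 was larger than its SD of 0.37. Kcnh3 exceeded Kcnq5 in 11 of 12 mice, Kcnh1 exceeded Kcnh2 in 11 of 12, and Kcnq3 exceeded Kcnh7 in 10 of 12 (log2 ratio 0.48 ± 0.41). The mean log2 ratio was smaller than its SD between mice for Kcnq5 over Kcnq3 (9 of 12 mice, 0.30 ± 0.42). The same held for Kcnh7 over Kcnh1 (7 of 12, 0.08 ± 0.43) and Kcnh4 over Kcnh5 (6 of 12, 0.05 ± 0.42). In the 9 HsTX1[R14A]-treated mice Kcnq5 exceeded Kcnq3 in 5, Kcnh7 exceeded Kcnh1 in 1 and Kcnh4 exceeded Kcnh5 in 3. The single length used for each gene is the longest transcript, and an isoform that is shorter in brain would raise that gene's level per kilobase.

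In HsTX1[R14A]-treated brains 4 of the 8 channel genes were higher than in PBS-treated brains, and Kcnh5, Kcnq3, Kcnh1 and Kcnh2 rose by 0.67, 0.59, 0.57 and 0.64 on the log2 scale. The other 4, Kcnh3, Kcnh4, Kcnq5 and Kcnh7, did not pass the test. The test was edgeR's quasi-likelihood test over 16303 genes with sex in the model and a Benjamini-Hochberg adjusted p of at most 0.05, which called 31.6% of all genes in either direction (15.5% of all genes higher and 16.1% lower). All 8 fitted differences were above 0, with a median of 0.54, against -0.013 over all genes, of which 48.6% were above 0. In RNA from bulk tissue, more cells of a type and more RNA per cell cannot be told apart.

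**Figure D1:**
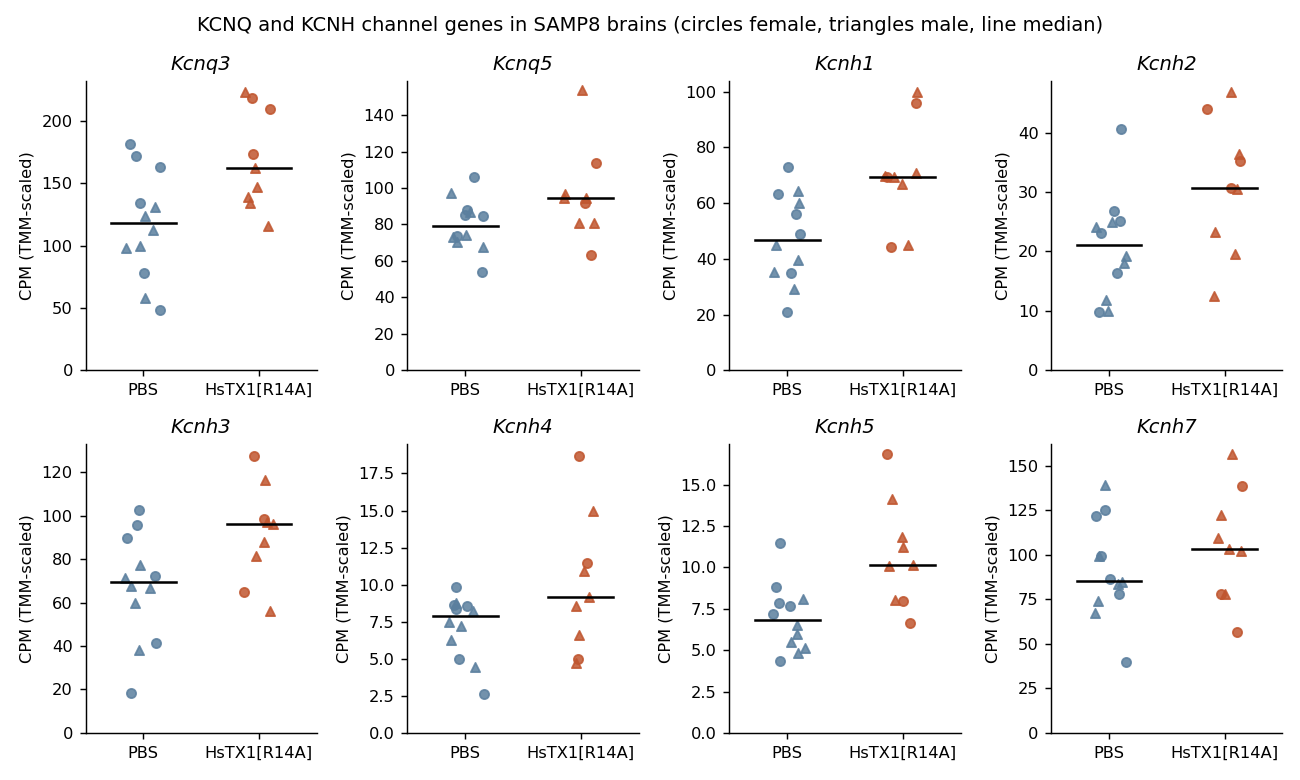
TMM-scaled CPM of each channel gene in each of the 21 brains, with 1 panel per gene and its own linear axis from 0. Points are mice (blue PBS, red HsTX1[R14A], circles female, triangles male) and lines are medians. The treated medians lie above the PBS medians in all 8 panels and the groups overlap in all 8.

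Both EAG genes rose. Kcnh5, the less abundant EAG subunit, ran from 4.33 CPM over a median of 6.84 to 11.5 CPM in PBS-treated mice, and from 6.64 over 10.2 to 16.8 CPM in HsTX1[R14A]-treated mice. The highest PBS value was mouse 104 and the highest treated values were mice 98 and 81, and 8 of 9 treated mice lay above the PBS median while 6 of 12 PBS mice lay below every treated mouse. The log2 fold change was 0.67 (SE 0.17, edgeR adjusted p = 0.0173). Kcnh1, which encodes the founding mammalian EAG channel, ran from 21 over 46.9 to 73.1 CPM in PBS-treated and from 44.3 over 69.3 to 99.9 CPM in treated mice. Here 7 of 9 treated mice lay above the PBS median, and the 2 that did not were HsTX1[R14A] mice 71 and 93, at 44.3 and 45.1 CPM. Its log2 fold change was 0.57 (SE 0.20, edgeR adjusted p = 0.0362).

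Within the M-current pair, Kcnq3 rose and Kcnq5 did not pass the test. Kcnq3 ran from 48.1 over 118 to 181.1 CPM in PBS-treated and from 115.9 over 161.9 to 223.2 CPM in treated mice. Lowest were PBS mice 103, 90 and 73, 3 treated mice (98, 81 and 72) exceeded every PBS mouse, and 6 of 12 PBS mice lay below every treated mouse. The log2 fold change of Kcnq3 was 0.59 (SE 0.19, edgeR adjusted p = 0.0293). Kcnq5 ran from 53.9 over 79.3 to 105.9 CPM in PBS-treated and from 63.1 over 94.2 to 153.7 CPM in treated mice, so that the treated range covered nearly all of the PBS range. Its log2 fold change was 0.27 (95% interval -0.015 to 0.55, edgeR adjusted p = 0.122).

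In the ERG pair it was Kcnh2, the gene of the cardiac repolarising channel, that rose. It ran from 9.86 over 21.1 to 40.6 CPM in PBS-treated and from 12.5 over 30.6 to 46.8 CPM in treated mice. The spread was wide in both groups: PBS mouse 84 (40.6 CPM) lay above 7 of the 9 treated mice and HsTX1[R14A] mouse 93 (12.5 CPM) below 9 of the 12 PBS mice. The log2 fold change was 0.64 (SE 0.23, edgeR adjusted p = 0.0435). Kcnh7, the neuronal ERG subunit, ran from 39.6 over 85.5 to 138.9 CPM in PBS-treated and from 56.9 over 103.5 to 156.5 CPM in treated mice. Its log2 fold change of 0.17 had a 95% interval of -0.23 to 0.58 (edgeR adjusted p = 0.49), and 1 treated mouse lay above every PBS mouse.

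The ELK pair had positive differences that did not pass after adjustment. Kcnh3 ran from 18.5 over 69.4 to 102.4 CPM in PBS-treated and from 56.2 over 96.0 to 127.6 CPM in treated mice, with a log2 fold change of 0.48 (95% interval 0.015 to 0.95, edgeR adjusted p = 0.0945). Kcnh4, with far fewer counts, ran from 2.63 over 7.87 to 9.86 CPM in PBS-treated and from 4.70 over 9.15 to 18.7 CPM in treated mice. The treated mice were widely spread, with 4 of 9 above every PBS mouse and 3 of 9 below the PBS median, while the lowest values were those of PBS mice 103 and 90, and the log2 fold change was 0.50 (95% interval 0.0013 to 1.00, edgeR adjusted p = 0.103).

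The calls differed in how they held up when mice were left out. Leaving out 1 mouse at a time left Kcnh5 called in 21 of 21 repeats, Kcnq3 in 17, Kcnh1 in 11 and Kcnh2 in 9, with the difference of each of the 8 genes above 0 throughout. Among the genes not called, the log2 fold change of Kcnh4 was 0.30 and that of Kcnh7 0.054 without HsTX1[R14A] mouse 98, that of Kcnh7 was 0.27 without HsTX1[R14A] mouse 71, and that of Kcnq5 was 0.17 without HsTX1[R14A] mouse 81. Kcnq3 lost its call when HsTX1[R14A] mouse 98, 72 or 81 or PBS mouse 90 was left out, with log2 fold changes from 0.52 to 0.58 and adjusted p from 0.0514 to 0.0579. Kcnh1 lost its call when HsTX1[R14A] mouse 98, 72, 74, 88 or 81 or PBS mouse 73, 101, 82, 90 or 91 was left out (log2 fold change 0.48 to 0.58, adjusted p 0.0522 to 0.089). Kcnh2 lost its own when HsTX1[R14A] mouse 98, 71, 72, 74, 88 or 81 or PBS mouse 105, 73, 85, 101, 90 or 91 was left out (log2 fold change 0.52 to 0.68, adjusted p 0.0508 to 0.0904), and Kcnh4 was called without HsTX1[R14A] mouse 93 (adjusted p = 0.0491). The number of genes called was 1 of 8 when HsTX1[R14A] mouse 98, 72 or 81 or PBS mouse 90 was left out, 2 when HsTX1[R14A] mouse 74 or 88 or PBS mouse 73, 101 or 91 was, and 5 without HsTX1[R14A] mouse 93. The calls over all genes moved with them, from 5144 with all mice to 2289 without PBS mouse 90, to 3005, 3504 and 3263 without HsTX1[R14A] mouse 98, 72 and 81, and to 6614 without HsTX1[R14A] mouse 93. With HsTX1[R14A] mice 71 and 74 left out together (the libraries of outlying striatal and cerebellar markers, an alternative chosen after seeing the data), edgeR called 0 of the 8 genes and 1 gene in the whole table. The log2 fold changes then lay between 0.28 (Kcnh7) and 0.76 (Kcnh5, adjusted p = 0.0563), and 7 of the 8 genes had an unadjusted p under 0.05, against 38.1% of all genes. Unadjusted p-values fell under 0.05 for 6 of the 8 genes with all mice, against 46.4% of all genes.

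The same mice stood at the ends of the range for gene after gene. PBS mouse 103 was the lowest of the 21 mice for all 8 genes, and PBS mouse 90 was among the lowest 2 for 6 genes. At the other end HsTX1[R14A] mouse 81 was among the highest 2 for 7 genes and mouse 98 for 6. These 4 mice also had the lowest and the highest length slopes. Across the 21 mice, after removal of the sex and treatment means, the log2 CPM of each gene rose with the library's length slope, with Pearson's r from 0.42 (Kcnh7) over 0.53 (Kcnq5) and 0.61 (Kcnh5) to 0.91 (Kcnq3) and 0.92 (Kcnh2). Among the 8 genes the r was not ordered by transcript length. Kcnh7, with the longest transcript (13321 bases), had the lowest r, and Kcnh2 (4221 bases) the highest. Kcnh3, with the shortest (3698 bases), had 0.86, while Kcnq3, with a long transcript (11824 bases), had 0.91. Whether r goes with transcript length was not tested. These r are a description, since slope and level come from the same libraries.
With the length slope as a covariate, 0 of the 8 genes and 0 of all genes were called by edgeR, and at an unadjusted p under 0.05 these counts were 0 and 1865. The log2 fold change was then 0.32 for Kcnh5, 0.023 for Kcnq3, 0.036 for Kcnh1 and -0.093 for Kcnh2. Kcnh3, Kcnh4 and Kcnh7 also turned negative, at -0.15, -0.18 and -0.098. When instead a smooth trend on length and GC content was taken out of each library, Kcnh5 kept its call (log2 fold change 0.58, adjusted p = 0.0218) and Kcnq3 fell just short (0.48, adjusted p = 0.0534), while Kcnh1 and Kcnh2 came to 0.24 and 0.21. With PBS mice 103 and 90 left out, an alternative chosen after seeing the data, Kcnh5 (0.59, adjusted p = 0.029) and Kcnq3 (0.46, adjusted p = 0.0331) were called. Length slope and treatment moved together in these libraries, and their parts in the differences cannot be told apart.

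**Figure D2:**
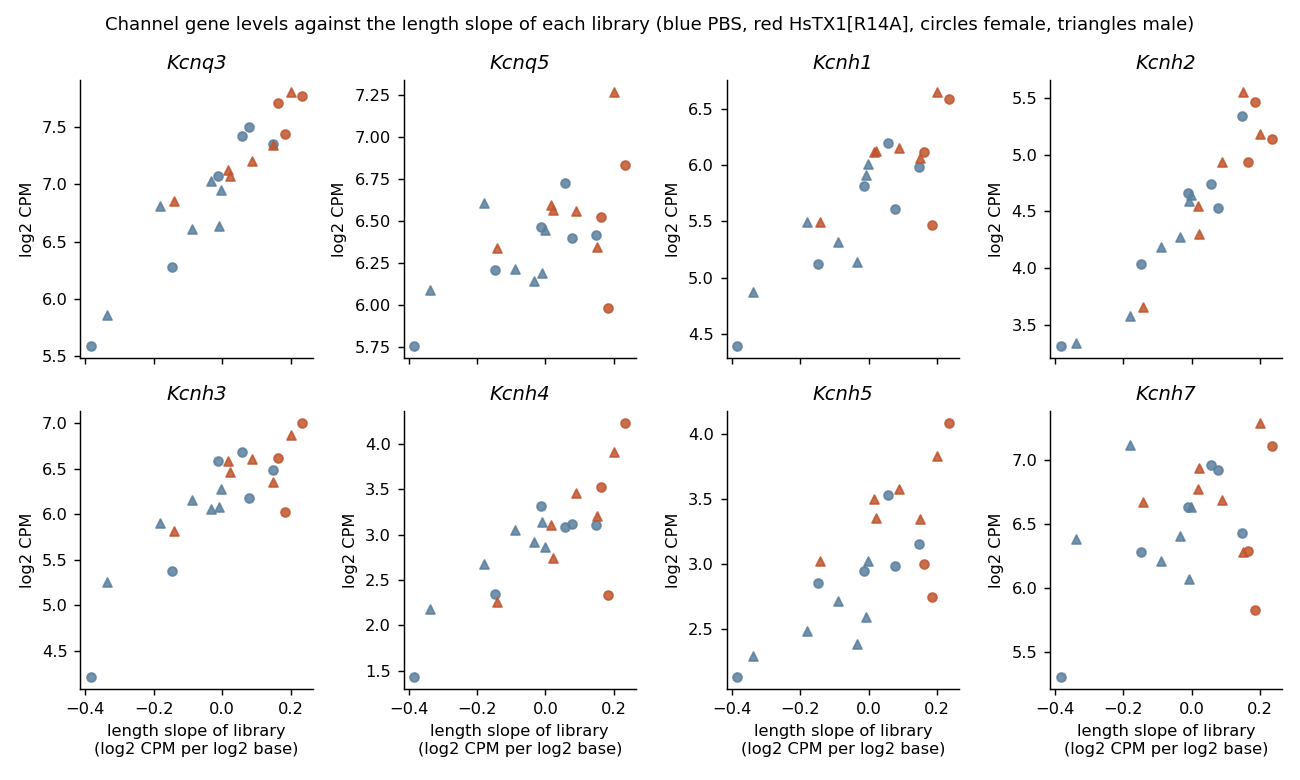
Log2 CPM of each channel gene (vertical axis) against the length slope of its library (horizontal axis, log2 CPM per log2 base), 1 point per mouse, coloured by treatment and shaped by sex. Levels rise with the slope from PBS mice 103 and 90 at the lower left to HsTX1[R14A] mice 98 and 81 at the right, most tightly for Kcnq3 and Kcnh2 and least for Kcnh7.

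Library name form was uneven between the treatments, and with it as a covariate Kcnh5 alone kept its call (log2 fold change 0.51, edgeR adjusted p = 0.0413). Within the 15 mice of the SAMP8 form, Kcnh5 had a log2 fold change of 0.50, Kcnq3 of 0.58, Kcnh1 of 0.45 and Kcnh2 of 0.78, with adjusted p from 0.0774 to 0.157. Within the 6 mice of the SAMP form these 4 genes had log2 fold changes of 0.55, 0.39, 0.34 and 0.21, and adjusted p from 0.855 to 0.873. Within either form edgeR called 0 genes of the whole table, and at an unadjusted p under 0.05 the counts were 3 of the 8 genes in the SAMP8 form, where 35.6% of all genes were that low, and 1 in the SAMP form, where 3.29% were. Kcnh7 differed in sign between them, at -0.097 in the SAMP8 form and 0.29 in the SAMP form, and this difference was not tested.

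**Figure D3:**
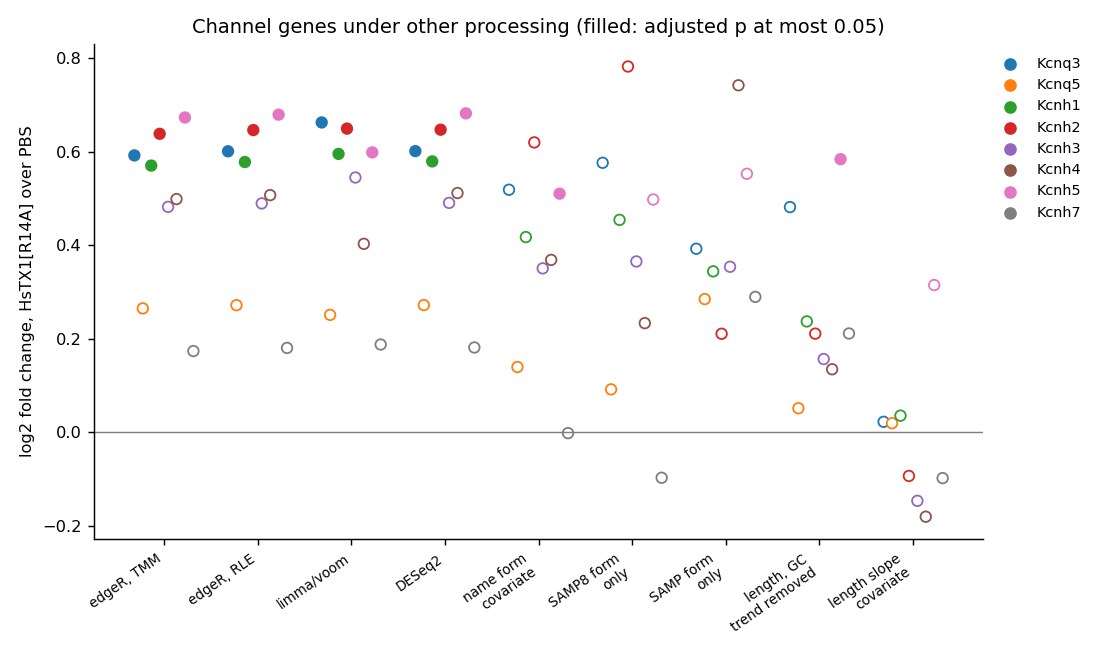
Treatment difference (log2 fold change, HsTX1[R14A] over PBS) of the 8 channel genes (colours) under 9 ways of processing (horizontal axis), with filled points where the adjusted p is at most 0.05. Kcnq3, Kcnh1, Kcnh2 and Kcnh5 are filled under edgeR with TMM or RLE scaling, limma/voom and DESeq2, Kcnh5 alone with the name form as covariate or the length and GC trend removed, and none within a name form or with the length slope as covariate.

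Separating the sexes did not single out any gene. In males, Kcnh5 had the largest difference of the 8 genes, 0.86 (SE 0.22), with all 6 treated males above the PBS male median, followed by Kcnh2 (0.65), Kcnh1 (0.62) and Kcnq3 (0.57). Female differences were 0.40 for Kcnh5, 0.63 for Kcnq3, 0.69 for Kcnh4 and -0.0087 for Kcnh7. By edgeR 0 of the 8 genes passed in females and 0 in males, where 0% of all genes were called in either sex, and at an unadjusted p under 0.05 these counts were 0 and 3 of the 8 genes, beside 27.8% and 24% of all genes. The treatment by sex interaction was called for 0 of the 8 genes and 0% of all genes (unadjusted p under 0.05 for 0 of the 8 and 1.66% of all genes), and its 95% intervals were wide, from -0.27 to 1.20 for Kcnh5 and from -1.36 to 0.73 for Kcnh4. Between males and females, 0 of the 8 genes differed at the adjusted threshold, beside 0.0552% of all genes, and at an unadjusted p under 0.05 these were 0 of the 8 and 10.8% of all genes.

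**Figure D4:**
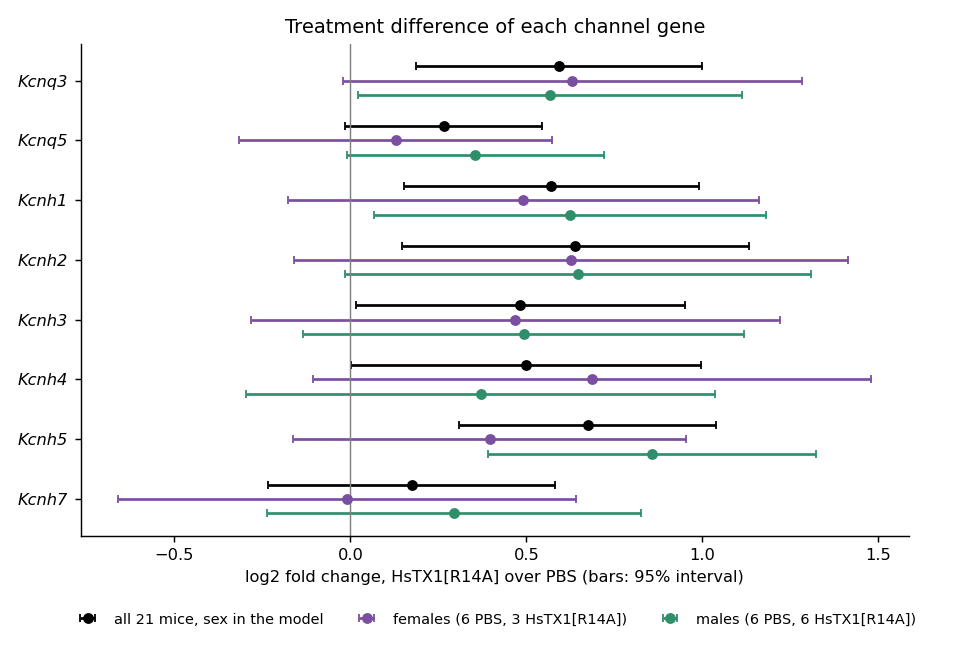
Treatment difference (log2 fold change, HsTX1[R14A] over PBS) of each channel gene, with 95% intervals from the t distribution, in all 21 mice with sex in the model (black), in females (purple, 6 PBS and 3 treated) and in males (green, 6 PBS and 6 treated). The intervals of the sexes overlap for every gene, and Kcnh5 in males has the largest difference, 0.86.

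A channel's make-up depends on the balance of its subunits. The ratio of the 2 genes read out in each branch was therefore taken within each library. Such a ratio does not depend on the library scaling. Kcnq5 counts over Kcnq3 counts had a geometric mean of 0.729 in PBS-treated and 0.569 in HsTX1[R14A]-treated mice, and all 9 treated mice lay below the PBS median. The sex-averaged log2 difference was -0.41 (exact permutation of treatment within sex, two-sided, p = 0.0185, adjusted over 4 ratios p = 0.074), so it did not pass. It passed without PBS mouse 85 (-0.45, adjusted p = 0.0462) or PBS mouse 82 (-0.48, adjusted p = 0.0201), and within the SAMP8 form it was -0.57 (adjusted p = 0.109) and within the SAMP form -0.11 (adjusted p = 0.667). The longest annotated transcript is 11824 bases for Kcnq3 and 6975 bases for Kcnq5, and the part of the length slope in this ratio was not tested.
For the other branches the ratios did not pass either. Kcnh7 over Kcnh2 had geometric means of 4.55 in PBS-treated and 3.49 in treated mice, a log2 difference of -0.48 (exact permutation, adjusted p = 0.287). For Kcnh5 over Kcnh1 they were 0.149 and 0.153, and the log2 difference was 0.054 (exact permutation, adjusted p = 0.649). For Kcnh4 over Kcnh3 they were 0.11 and 0.102, with a log2 difference of -0.11 (exact permutation, adjusted p = 0.543).

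**Figure D5:**
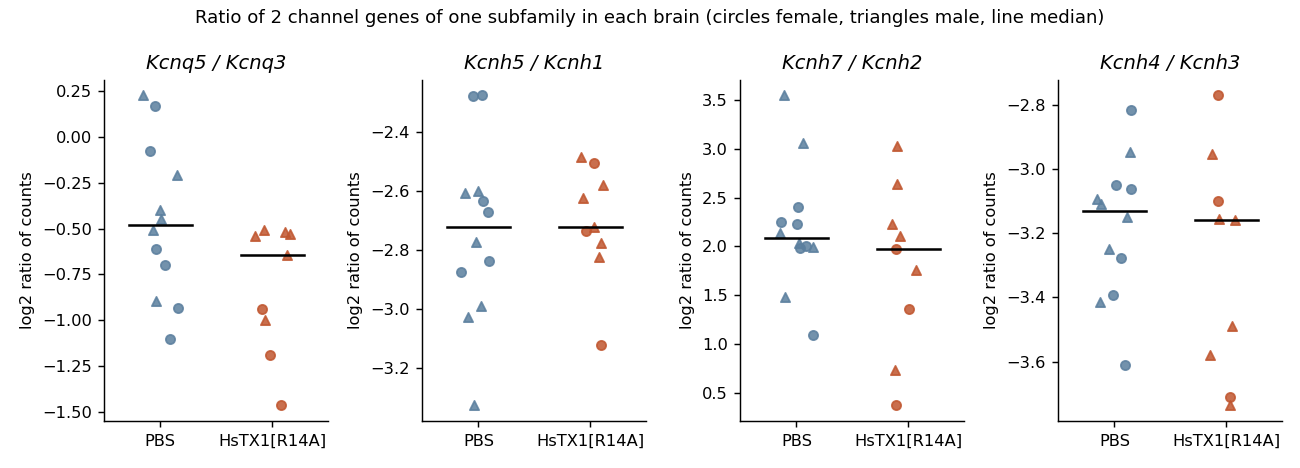
Log2 ratio of the counts of 2 channel genes of one branch in each mouse (blue PBS, red HsTX1[R14A], circles female, triangles male, lines medians), each panel on its own axis. In the Kcnq5 over Kcnq3 panel all 9 treated mice lie below the PBS median, and in the other 3 panels treated mice lie on both sides of it.

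Genes whose products bind or regulate these channels were read from a list of 26, of which 24 were in the table. Of these 9 rose and 2 fell, where 15.5% of all genes were called higher and 16.1% lower, with a median log2 fold change of 0.17 over the 24. On the receptor side, Chrm1, a muscarinic receptor that closes the M-current, ran from 39.3 over 82.3 to 122.2 CPM in PBS-treated and from 82.3 over 110.8 to 160.0 CPM in treated mice, a log2 fold change of 0.61 (SE 0.16, edgeR adjusted p = 0.0186). Gnaq and Plcb1, the G protein and phospholipase downstream of it, had log2 fold changes of 0.19 and 0.15 and did not pass (adjusted p = 0.0734 and 0.26, edgeR). Prkca and Pi4ka, a protein kinase C and a kinase of the lipid pathway to PIP2, rose by 0.43 and 0.48. Pip5k1c, Chrm3, Plcb4 and Gna11, also on the list, did not pass. Their log2 fold changes were 0.21, 0.15, 0.13 and -0.063 (edgeR adjusted p from 0.28 to 0.389).
Sptbn4, the spectrin of the axon initial segment, where KCNQ channels are held, ran from 27.4 over 89.5 to 142.4 CPM in PBS-treated and from 58.2 over 147.1 to 195.2 CPM in treated mice, and its log2 fold change was 0.73 (SE 0.22, edgeR adjusted p = 0.0252). Nfasc and Ank3, a cell adhesion molecule of that segment and the ankyrin that binds the channels, which were named after their values were seen, rose by 0.87 and 0.41. Nedd4 and Nedd4l, ubiquitin ligases that remove KCNQ channels from the membrane, rose by 0.32 and 0.43. Bace1, the beta-secretase, which also associates with KCNQ channels, went from 73.6 ± 9.67 (SD, n = 12) to 86.3 ± 10.3 CPM (SD, n = 9), a log2 fold change of 0.26 (SE 0.075, edgeR adjusted p = 0.0213).
Calm2, which encodes calmodulin, a calcium sensor bound to KCNQ and EAG channels, fell by 0.34 on the log2 scale (SE 0.13, edgeR adjusted p = 0.0448). Calm3, which encodes the same protein, had a log2 fold change of -0.058 and did not pass (adjusted p = 0.532, edgeR). Among the accessory KCNE subunits, Kcne1l had the smallest p at a log2 fold change of -0.33 (adjusted p = 0.146, edgeR) and Kcne2, which is also strong in choroid plexus, was at -0.78 (adjusted p = 0.151). The count of 11 called partner genes went to 3 without HsTX1[R14A] mouse 81, to 4 without HsTX1[R14A] mouse 98 or PBS mouse 90, 6 without HsTX1[R14A] mouse 88 and 7 without HsTX1[R14A] mouse 71 or 72. It was 1 with the name form as covariate, 4 with the length and GC trend removed, 7 without PBS mice 103 and 90, and 0 with the length slope as covariate, within either name form, or without HsTX1[R14A] mice 71 and 74 (edgeR, with 0, 10, 0 and 13 at an unadjusted p under 0.05 for the slope, the SAMP8 form, the SAMP form and the 2 mice).

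Markers of the cell types in brain were read beside the channel genes. Of 10 neuronal markers 2 rose and 0 fell, near the 15.5% of all genes called higher, with a summed level of 6027 to 8869 CPM in PBS-treated and 7241 to 10362 CPM in treated mice. Of 6 markers each, 3 of astrocytes, 3 of oligodendrocytes and 2 of microglia fell and 0 rose. Over all genes 16.1% were called lower. The summed oligodendrocyte level was 4277 to 6608 CPM in PBS-treated and 3243 to 4783 CPM in treated mice, that of astrocytes 1531 to 2339 and 1438 to 1989 CPM, and that of microglia 245.2 to 328.5 and 214.3 to 292.8 CPM. Of 5 endothelial markers 1 rose, and of the 5 choroid plexus, 6 cerebellar, 6 striatal and 6 cortical and hippocampal markers 0 passed by edgeR. Among the marker lists 0 genes were at 0 counts in all mice. The part of cell composition in the differences of the channel genes was not tested.

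Between the mice the 8 channel genes rose and fell together to very different degrees. After removal of the sex and treatment means, Pearson's r of log2 CPM over the 21 mice was highest for Kcnh1 with Kcnh3 (0.91), Kcnq3 with Kcnh3 (0.90), Kcnh3 with Kcnh4 (0.89) and Kcnq5 with Kcnh7 (0.89). It was lowest for Kcnh2 with Kcnh7 (0.16), the 2 ERG genes read out, and for Kcnq5 with Kcnh2 (0.33). The biological coefficient of variation ran from 0.212 (Kcnq5) to 0.372 (Kcnh4), above the median of all genes (0.184) for all 8.
The genes closest in pattern were sought by the same r among the 13301 genes whose log2 CPM averaged 1 or more. Kcnq3 was closest to Fam189a1 (0.98) and to Tnr (0.97), which encodes an extracellular matrix protein of perineuronal nets. Kcnh2 was closest to Grin2d, an NMDA receptor subunit (0.98), and Dpysl5 (0.98), and Kcnh3 to Pik3r2 (0.97) and Acap3 (0.97). Kcnh1 had Tmtc1 (0.97) and Mark1 (0.95) nearest, Kcnh7 had Sowahb (0.95) and Hkdc1 (0.95), and Kcnq5 had Baiap2 (0.93) and Camkk2 (0.93). For Kcnh4 they were Cux1 (0.94) and the sodium-activated potassium channel gene Kcnt1 (0.94). Kcnh5 had the lowest leading r of the 8, with Fhod3 at 0.90 and Syt12 at 0.88. These r are over mice that share the library differences described above and are given as a description.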

How the data were processed

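RNA from 21 SAMP8 brains was sequenced by the authors, 1 library per mouse. According to the study's methods, reads were processed with nf-core/rnaseq, aligned to GRCm38 with STAR and quantified with Salmon, and the deposited values are estimated counts (expected counts) for 16318 genes, not normalized. The submitters' processing notes also name limma. The filter on genes and the annotation release are not given in the sources used here. The methods name an MGI directional kit and the sample labels a SMARTER kit. The labels spell the peptide HxTX1[R14A]. The authors' fold changes, p-values and FDR in the same table, and 53 per-sample columns (37 of CPM, 16 of counts), were not used.

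The members and lists were chosen with earlier results of these data known. Groups came from the sample titles. Counts (90.496% within 0.01 of a whole number) were rounded. 0 rows lacked a gene name. With edgeR 4.0.16 in R 4.3.3, the 16303 genes that filterByExpr kept were TMM-scaled and fitted with glmQLFit and glmQLFTest on sex and treatment, or with 4 groups for the sexes and the interaction, at a Benjamini-Hochberg adjusted p (FDR) of at most 0.05. SE is the log2 fold change divided by the square root of F. Intervals use the t distribution with 18 (4 groups: 17) degrees of freedom, that is 2.10 (2.11) SE. Log2 CPM carry a prior count of 2. Ratios of counts were tested by exact permutation within sex (77616 labelings, two-sided), adjusted over 4 ratios. Lengths and sequences are from GENCODE M21 for GRCm38.

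Named genes were all 8 members, the 3 partner genes of smallest p in each direction, and the 2 genes most like each member. A gene and a sequence that these rules select are not reported here. Other partner genes, and Gabra6 and Cbln3, were named after their values were seen. Alternatives were limma/voom (limma 3.58.1) without and with quality weights, DESeq2 1.42.0, RLE scaling, no filter beyond 1 count, a minimum of 10 counts in every mouse, a model without sex, name form or length slope as covariate, removal of the length and GC trend (loess span 0.5), either name form by itself, and leaving out each mouse. Leaving out PBS mice 103 and 90, or HsTX1[R14A] mice 71 and 74, was chosen after seeing the data. In data simulated for the treatment comparison (16299 genes), 117 of 200 genes changed 1.5-fold were recovered with 9 false calls, and 165 of 200 changed 2-fold with 12. Each gene was drawn independently there, without differences shared across a library such as length slope, name form or region markers. These counts therefore give no error rate for the real libraries.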

Additional observations from a re-analysis of the deposited data

Results flagged for a closer look

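Of 24 sets of mice, each channel gene in each group of 6, 1 had a mouse apart from the rest, where chance gives about 1 in 20. It was Kcnq5 in HsTX1[R14A]-treated males, where mouse 81 had 153.7 CPM and the other 5 mice 80.9 to 96.5 CPM, a gap of 0.786 of the whole range. Without mouse 81 the log2 fold change of Kcnq5 over all mice was 0.17, against 0.27 with it.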

How the results depend on the processing

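The count of 4 called channel genes was the same with limma/voom, with quality weights, DESeq2, RLE scaling, no filter or at least 10 counts in every mouse. It was 2 without a sex term, 1 with name form as covariate, 0 with the length slope as covariate, 1 with the length and GC trend removed and 0 within either name form. Of the alternatives chosen after seeing the data, it was 2 without PBS mice 103 and 90 and 0 without HsTX1[R14A] mice 71 and 74. It ran from 1 to 5 with each mouse left out. In the same order the 11 called partner genes became 5, 1, 0, 4, 0 and 0, then 7 and 0, and ran from 3 to 11. The cause was not tested. Over all genes 5144 calls became 2984 without a sex term, 1999 with name form, 2686 with the trend removed, 2887 without mice 103 and 90, 1 without mice 71 and 74, and 0 with the slope or within a form.

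The log2 fold change turned negative with the length slope as covariate for Kcnh2 (-0.093), Kcnh3 (-0.15), Kcnh4 (-0.18) and Kcnh7 (-0.098), and for Kcnh7 with name form as covariate (-0.0016) and within the SAMP8 form (-0.097). Within the SAMP form the log2 differences of Kcnh7 over Kcnh2 (0.097) and Kcnh4 over Kcnh3 (0.35) turned positive, where 2 PBS mice limit any test. With each mouse left out, Kcnq5 over Kcnq3 ran from -0.48 to -0.34 and Kcnh5 over Kcnh1 from -0.0064 to 0.14. No paired analysis was possible because each mouse number occurs once and the labels do not give the cage, within which the study's methods say that treatment was randomized. Depth was not the limit for these genes, since the lowest count was 37.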
